A study of Rattus norvegicus with 44 samples.

Results

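The interaction of Enalapril and Compound 1 in the kidney was described from 44 libraries, all 44 of the series, which fall into 4 groups by the names of their columns. It asks whether the effect of Compound 1 was the same with Enalapril as without it. For each gene it is the difference between the combination and Enalapril minus the difference between Compound 1 and Vehicle, on the scale of log2(FPKM + 0.1), where FPKM is the fragment count of a gene scaled to its length and to the mapped reads of the library. A value of 0 means that the 2 treatments added up on the log2 scale. It was tested for the 13482 genes with an FPKM above 1 in at least 9 animals, of 32883 entries in the table.

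The animals were male obese ZSF1 rats, a strain that develops obesity, diabetes and progressive kidney disease, and each gave 1 library of snap-frozen kidney. All carried telemetry implants, received their treatment in feed from 22 weeks of age and were treated for 6 months. Vehicle comprised 11 animals, Enalapril at 3 mg/kg/day 9 animals and Compound 1, at 1 and later 3 mg/kg/day, 12 animals. The combination comprised 12 animals given Enalapril at 3 mg/kg/day and Compound 1 at 1 mg/kg/day. Alone, Compound 1 therefore reached a higher dose than in the combination, so a weaker effect of Compound 1 in the presence of Enalapril and a weaker effect of the lower dose cannot be told apart in these data. The tissue was a portion of the right kidney with its cell types mixed, in which fewer cells of a type and less RNA per cell cannot be told apart. How much cortex and medulla each portion held is not given, and this may differ between animals. The proximal tubule receptor Lrp2 had mean FPKM of 85.7 in Vehicle, 101 under Enalapril, 82.8 under Compound 1 and 108 under both, and 24 of 26 listed proximal tubule genes passed the filter. The 4 libraries least like the others by median correlation were animals 1003 and 1004 of Vehicle and 3001 and 3105 of Compound 1, and without them the 1 interaction that passed, that of Kcne1, still passed (adjusted p = 0.0267).

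Enalapril inhibits angiotensin-converting enzyme and so lowers the formation of angiotensin II, a peptide that constricts vessels and raises sodium reabsorption. Compound 1 is a stimulator of soluble guanylate cyclase, the receptor of nitric oxide, which makes cGMP and relaxes vascular smooth muscle. Both pathways bear on renal blood flow, blood pressure, inflammation and matrix formation, and they share some downstream genes.

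Departures from additivity that passed the test were few. In the interaction 1 gene of 13482 reached the threshold, an adjusted p under 0.05 at a fold change over 1.5 or below 0.66 (0.00742% of the genes tested, limma). It was Kcne1, with a positive interaction, and the next smallest adjusted p was 0.524. At an unadjusted p under 0.05 there were 579 genes (4.29% of those tested), 504 with a positive and 75 with a negative interaction. That imbalance depended on the scaling, since 279 of 563 such genes were positive after median-of-ratios scaling and 317 of 596 after quantile normalization. The median interaction over all genes was 0.05 on the log2 scale, with a median standard error of 0.143 per gene, and it was near 0 after median-of-ratios scaling. The 95% confidence interval of the interaction lay within a 1.5-fold change in either direction for 10562 genes (78.3%). This share was 95.7% of the 2680 genes with a mean FPKM over 30 and 8.75% of the 537 genes with a mean FPKM up to 1. By the classes of the additive fit described below, the share was 79.9% of the 13066 genes called for neither treatment. It was 32.2% of the 348 genes lowered and 27.3% of the 44 genes raised by Enalapril only. For Compound 1 only it was 2 of 9 lowered and 0 of 2 raised genes. For both treatments it was 0 of 7 lowered and 0 of 5 raised genes. A departure of that size was therefore not excluded in many low genes and in most genes called for a treatment. The share does not tell which departures the test could call after adjustment over 13482 genes. Pgm5, described below, had an interaction of about 1.5-fold and did not pass, so departures of that size could be missed at higher levels too.

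Kcne1 encodes a regulatory subunit of voltage-gated potassium channels that is found in the proximal tubule. Its lowest, median and highest FPKM were 3.05, 4.30 and 6.28 in Vehicle, 1.82, 3.12 and 5.06 under Enalapril, 1.18, 2.89 and 3.99 under Compound 1, and 2.41, 4.29 and 5.28 under both. Each single treatment lowered the transcript, the combination stood near Vehicle, and the ranges of the 4 groups overlapped. The mean was 4.56 ± 1.09 FPKM (SD, n = 11) in Vehicle, 2.94 ± 0.975 (n = 9) under Enalapril, 2.78 ± 0.739 (n = 12) under Compound 1 and 4.11 ± 0.781 (n = 12) under both. Against Vehicle the log2 fold change was -0.64 (SE 0.167, adjusted p = 0.00402) with Enalapril, -0.71 (SE 0.155, adjusted p = 0.0128) with Compound 1 and -0.14 (SE 0.155, adjusted p = 0.478) with the combination. The sum of the single changes would have given 1.68 FPKM in the combination, and all 12 combination animals lay above that level. The interaction was 1.21 on the log2 scale (SE 0.226, adjusted p = 0.0342, 95% confidence interval 0.76 to 1.67). Its size stayed between 0.95 and 1.47 under the alternatives on a log2 scale and between 1.11 and 1.32 when any animal was left out. The call itself was lost in 5 of 14 alternatives, with adjusted p values from 0.00125 to 0.503 over all 14. Among the 5 were both other scalings and the rescaling without mitochondrial transcripts. Of the 14, calling at the adjusted p alone repeats the main fit, so it could not lose the call. In 20 of 44 fits without 1 animal the call was also lost, with adjusted p values from 0.00384 to 0.103 over the 44. Animal 2005 of the Enalapril group had the value of 5.06, and the other 8 lay from 1.82 to 3.33. Without it the interaction was 1.32.

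**Figure D1:**
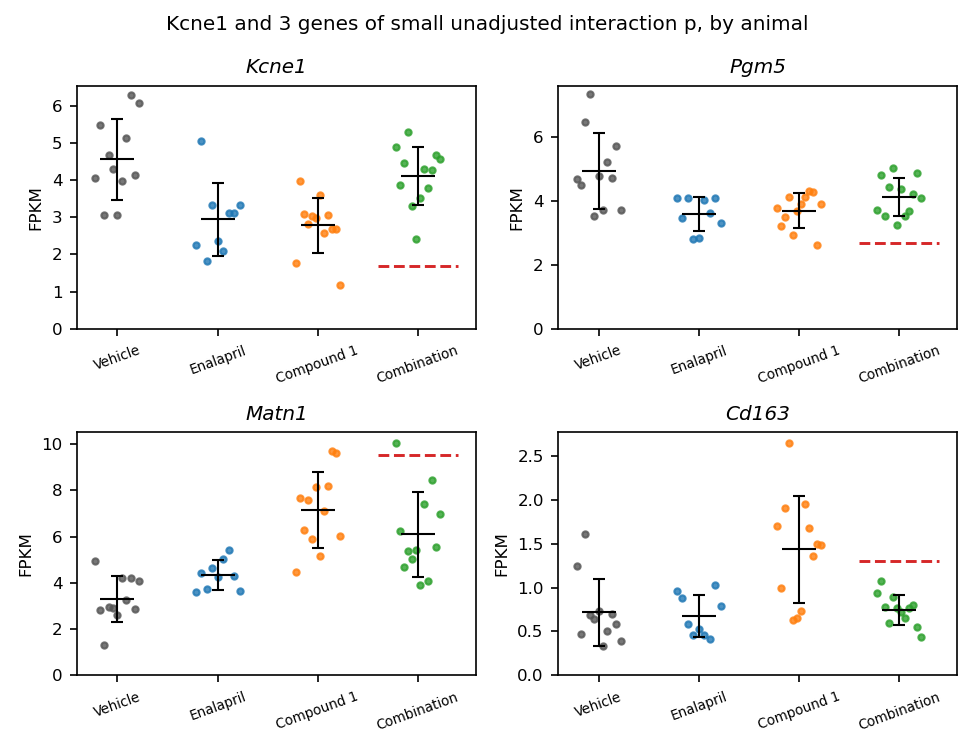
FPKM of 4 genes in each animal (points) of the 4 groups, with the mean and SD (black) and the level that the 2 single treatments would give if they added on the log2 scale (red dashes). All 12 combination animals lie above the dashes for Kcne1 and Pgm5, and all 12 lie below them for Cd163; Kcne1 alone passed the test.

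No other gene passed, and those with the smallest unadjusted p and a large enough fold are given as values. Since they were picked by their p among all genes, their sizes are a description. The positive interactions included Pgm5, a structural relative of phosphoglucomutase at muscle adherens junctions, at 0.59 (SE 0.151, unadjusted p = 0.000329, adjusted p = 0.90). Its mean was 4.95 FPKM in Vehicle, 3.60 under Enalapril, 3.70 under Compound 1 and 4.13 under both. The ceramide synthase Cers6 had an interaction of 0.61 (unadjusted p = 0.000848). Mean Cers6 was 3.54 FPKM in Vehicle, 3.02 under Enalapril, 3.01 under Compound 1 and 3.93 under both.

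Among the 10 genes of smallest unadjusted p with a large enough fold and a negative interaction, 2 were raised by Compound 1 alone. Matn1, an extracellular matrix protein of cartilage, had a lowest, median and highest FPKM of 1.32, 2.95 and 4.95 in Vehicle, 3.58, 4.29 and 5.40 under Enalapril, 4.48, 7.34 and 9.70 under Compound 1, and 3.92, 5.49 and 10.1 under both. Compound 1 raised it by 1.13 on the log2 scale (SE 0.154, adjusted p = 2.11e-05) without Enalapril, whereas the difference with Enalapril present was 0.44 (SE 0.162, adjusted p = 0.315). The interaction was -0.69 (SE 0.224, unadjusted p = 0.0036, adjusted p = 0.986), and 11 of 12 combination animals lay below the level of the summed changes. Cd163, the haemoglobin scavenger receptor of macrophages, ran from 0.632 to 2.65 FPKM under Compound 1 and from 0.439 to 1.07 under both. Its mean was 0.719 in Vehicle, 0.676 under Enalapril, 1.44 under Compound 1 and 0.746 under both. Compound 1 raised it by 0.91 (adjusted p = 0.0242) alone, and the combination was lower than Compound 1 (-0.77, adjusted p = 0.00794). Its interaction was -0.75 (SE 0.312, unadjusted p = 0.0201, adjusted p = 0.986). Of the 16 tested macrophage and monocyte genes, 12 had a positive interaction and the list's median was 0.12.

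The effect of Enalapril was then compared without and with Compound 1, in separate animals. Against Vehicle, Enalapril changed 615 genes (4.56% of those tested), 544 lower and 71 higher. Against Compound 1, the combination changed 314 genes (2.33%), 277 lower and 37 higher. Of the 544 genes lowered without Compound 1, 537 were also lower with it, and 172 passed there, which is 31.6% of the first list and 62.1% of the second. Over all tested genes, 72.8% were lower in that second comparison. All 71 genes raised by Enalapril alone were also higher with it on top of Compound 1, and 20 passed (28.2% of the first list and 54.1% of the second). Genes chosen as past a threshold in 1 comparison tend to be smaller in the other, and their medians were -0.69 against -0.51 on the log2 scale for the lowered and 0.71 against 0.49 for the raised genes. The split of these calls depended on scaling: after median-of-ratios scaling 164 genes were lower and 213 higher with Enalapril, and after quantile normalization 146 were lower and 197 higher. For the combination against Compound 1 the splits were 147 lower and 90 higher, and 108 lower and 105 higher. As deposited, the change against Vehicle had a median over all genes of -0.15 for Enalapril, -0.07 for Compound 1 and -0.18 for both together.

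The distal tubule calcium channel Trpv6 was an example of an effect of Enalapril that Compound 1 left in place. Its mean was 5.33 ± 2.59 FPKM in Vehicle, 1.55 ± 0.391 under Enalapril, 5.98 ± 3.15 under Compound 1 and 1.90 ± 1.11 under both (SD). Enalapril lowered it by 1.62 on the log2 scale without and 1.60 with Compound 1, and the interaction was 0.02 (95% confidence interval -0.78 to 0.82). Havcr1, which encodes the tubular injury marker KIM-1, fell by 0.69 without (SE 0.14, adjusted p = 0.000501) and by 0.90 with Compound 1 (SE 0.127, adjusted p = 3.94e-05). Its interaction was -0.21 (95% confidence interval -0.59 to 0.17). For the subunits of soluble guanylate cyclase, the log2 difference with Enalapril did not reach the fold threshold. It was -0.45 (adjusted p = 0.00529) without and -0.42 (adjusted p = 0.00688) with Compound 1 for Gucy1a1, with an interaction of 0.03 (SE 0.166). For Gucy1b1 it was -0.39 in both comparisons (adjusted p = 0.0139 and 0.0109), with an interaction of 0.00 (95% confidence interval -0.33 to 0.33).

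Fewer genes passed for Compound 1 when Enalapril was present. Against Vehicle, Compound 1 changed 34 genes (0.252%), 22 lower and 12 higher, whereas 1 gene, Mcpt2, passed between the combination and Enalapril (0.00742%). Without the fold threshold 7 genes passed between the combination and Enalapril, and 1401 had an unadjusted p under 0.05. Of the 22 genes lowered by Compound 1 alone, 21 were also lower when it was added to Enalapril, Kcne1 being the exception, with medians of -0.76 without and -0.43 with Enalapril. All 12 raised genes were also higher, with medians of 0.73 and 0.43, and 55.5% of all genes were lower in the second comparison. All 34 changes were smaller with Enalapril present, which the choice of genes on the first comparison in part fixes.

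To describe these effects without choosing genes on the contrast itself, genes were put into classes by a fit with a term for each treatment and no interaction, whose estimates are uncorrelated with that of the interaction. Enalapril passed for 405 genes (3% of those tested), 356 lower and 49 higher. Compound 1 passed for 24 genes (0.178%), 16 lower and 8 higher. With median-of-ratios scaling the splits were 147 lower and 133 higher for Enalapril and 13 lower and 10 higher for Compound 1. The 356 genes lowered by Enalapril had a median interaction of 0.07, beside 0.05 for all genes, and 219 of them (61.5%) were positive, beside 64.5% of all genes. The mean level of this class fell by 0.81 on the log2 scale (SE 0.112 over animals) without Compound 1 and by 0.75 (SE 0.125) with it, with an interaction of 0.06 (SE 0.168). The 49 genes raised by Enalapril had a median interaction of -0.17, and 36 were negative. Their mean level rose by 0.90 (SE 0.151) without and 0.70 (SE 0.138) with Compound 1, an interaction of -0.20 (SE 0.204). With the median of all genes removed from each animal, these interactions were 0.01 (SE 0.134) for the lowered and -0.25 (SE 0.224) for the raised class. The median of the lowered class turned negative with median-of-ratios scaling (-0.02), quantile normalization (-0.02), array quality weights (-0.07) and without animals 1003 and 1004 (-0.03). That of the raised class turned to 0.01 with array quality weights and at the adjusted p alone.

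**Figure D2:**
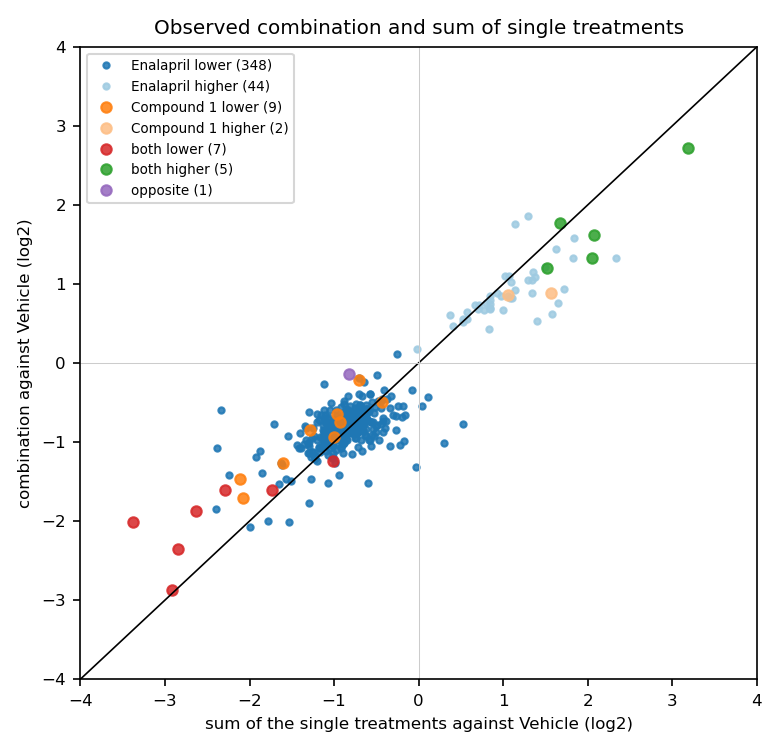
Log2 change of the combination against Vehicle (vertical axis) and sum of the log2 changes of the single treatments (horizontal axis) for the 416 genes that passed in the additive fit, by class, with the line of equal values. Of the genes lowered by both treatments 6 of 7 lie above the line and 4 of 5 genes raised by both lie below it, while the large class lowered by Enalapril is spread around it.

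The classes that moved with Compound 1 were the ones whose medians lay farthest from 0. For the 16 genes it lowered, the median interaction was 0.35, 14 of 16 were positive, and 14 of 16 changes were smaller with Enalapril present. Their mean level fell by 1.08 (SE 0.0865) without and by 0.70 (SE 0.122) with Enalapril, an interaction of 0.38 (SE 0.149). For the 8 genes it raised, the median was -0.38, 6 of 8 were negative and the mean level rose by 0.81 (SE 0.154) without and 0.56 (SE 0.0927) with Enalapril, an interaction of -0.25 (SE 0.18). Array quality weights brought these medians to 0.16 and -0.03, and calling at the adjusted p alone, which puts 430 genes into the classes, gave 0.01 and -0.03. The genes of a class vary together between animals, so their number does not count as replication. All 24 genes had the same direction with Enalapril present, which the choice on the average of the 2 comparisons largely fixes.

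**Figure D3:**
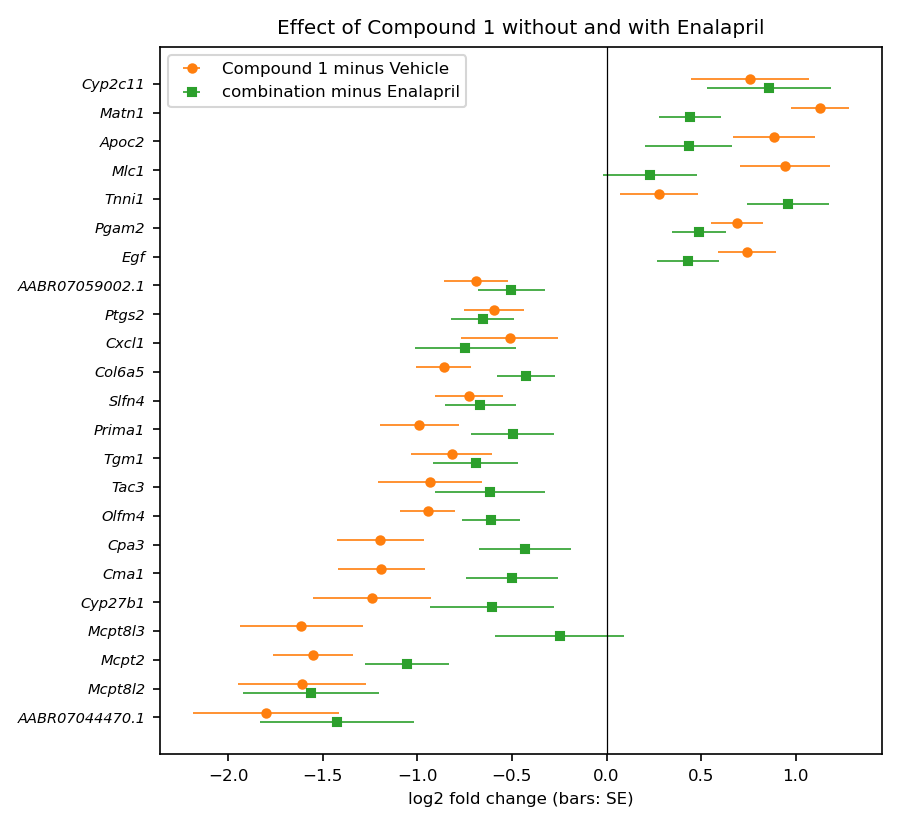
Log2 change with Compound 1 for 23 of the 24 genes that passed in the additive fit, without Enalapril (circles) and with Enalapril (squares), with standard errors. All 23 changes shown have the same sign in both comparisons, as the choice of genes largely fixes, and 19 of 23 are smaller with Enalapril, where the final dose of Compound 1 was also lower.

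By the additive fit, both treatments raised 5 genes, among them Egf, Apoc2, Cyp2c11 and Mlc1. Egf, epidermal growth factor of the distal tubule, had a lowest, median and highest FPKM of 19.3, 39.3 and 57.5 in Vehicle, 50.8, 62.1 and 84.8 under Enalapril, 36.3, 62.8 and 89.6 under Compound 1, and 46.0, 89.8 and 112 under both. The single treatments raised it by nearly equal amounts, 0.77 (SE 0.167) and 0.74 (SE 0.155) on the log2 scale, and the combination by 1.20 (SE 0.155). The interaction was -0.31 (SE 0.226, 95% confidence interval -0.77 to 0.14), and on the FPKM scale the combination differed from the summed increases by -2.00 FPKM (SE 8.84). Apoc2, the lipoprotein lipase cofactor, had means of 14.1, 34.2, 27.3 and 42.9 FPKM in Vehicle, Enalapril, Compound 1 and the combination, and an interaction of -0.45 (SE 0.315). Mlc1, a membrane protein best known from astrocytes, had means of 1.11, 2.21, 2.01 and 2.58 FPKM and an interaction of -0.71 (SE 0.343, unadjusted p = 0.0436). Cyp2c11, a male-specific cytochrome P450, had means of 2.09, 4.02, 3.67 and 6.71 FPKM and an interaction of 0.10 (SE 0.452), which was -0.10 without Compound 1 animal 3001 and 0.32 without Enalapril animal 2012. On the FPKM scale the combination differed from the summed increases by -4.62 FPKM (SE 7.67) for Apoc2, -0.53 (SE 0.39) for Mlc1 and 1.11 (SE 1.42) for Cyp2c11. On the log2 scale the mean level of the 5 genes rose by 0.88 with Compound 1 alone (SE 0.225) and by 0.52 on top of Enalapril (SE 0.136), an interaction of -0.37 (SE 0.263).

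By the same fit, both treatments lowered 7 genes: Mcpt2, Mcpt8l2, Mcpt8l3, Cpa3, Cma1, Tgm1 and Cxcl1. Of these 5 encode proteases of mast cells or their close relatives. The promoters of Cpa3, the mast cell carboxypeptidase, and Cma1, chymase, are shown because these genes moved together across the 4 groups. They are 300 bases around the annotated start from RefSeq on build GRCr8, written along the gene's strand, with matches to GATAA, the core motif bound by GATA factors, in capitals; both strands were searched.
Cpa3: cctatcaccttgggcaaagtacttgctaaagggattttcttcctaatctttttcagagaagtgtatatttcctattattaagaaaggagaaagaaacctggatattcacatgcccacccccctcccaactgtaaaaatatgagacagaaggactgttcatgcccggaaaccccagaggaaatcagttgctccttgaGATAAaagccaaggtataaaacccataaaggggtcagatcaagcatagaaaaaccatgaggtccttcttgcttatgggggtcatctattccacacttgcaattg
Cma1: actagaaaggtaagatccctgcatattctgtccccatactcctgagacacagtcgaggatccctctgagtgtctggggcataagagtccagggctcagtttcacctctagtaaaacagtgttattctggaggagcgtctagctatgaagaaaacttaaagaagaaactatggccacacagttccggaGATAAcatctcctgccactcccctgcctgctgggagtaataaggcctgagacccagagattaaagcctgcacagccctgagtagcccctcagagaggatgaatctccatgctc
The Cpa3 window is at chr2:104673188-104673487 and that of Cma1 at chr15:33390084-33390383, both on the minus strand. Each holds 1 match, 54 bases from the start in Cpa3 and 63 in Cma1. Of 33469 rat promoters of this length, 26.5% hold the motif, and the windows of Mcpt8l2 and Mcpt8l3 hold none. A match describes the letters only.

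Mcpt2, mast cell protease 2, had a lowest, median and highest FPKM of 9.26, 15.6 and 21.1 in Vehicle, 3.82, 5.57 and 15.4 under Enalapril, 2.95, 4.91 and 9.94 under Compound 1, and 1.18, 3.03 and 4.54 under both. The combination lay below every Vehicle animal, and it was the 1 gene that passed between the combination and Enalapril, with a log2 change of -1.06 (SE 0.222, adjusted p = 0.0459). That call was not stable, since the number of calls in this comparison ran from 0 to 8 when single animals were left out. Mcpt2 fell by 1.29 with Enalapril and by 1.55 with Compound 1, and its interaction was 0.50 (SE 0.306, unadjusted p = 0.111). Cpa3 had a lowest, median and highest FPKM of 0.958, 2.47 and 3.71 in Vehicle, 0.162, 0.886 and 1.85 under Enalapril, 0.309, 1.03 and 1.74 under Compound 1, and 0.422, 0.588 and 0.811 under both. All 12 combination animals lay above the 0.304 FPKM of the summed changes, and the interaction was 0.76 (SE 0.334, unadjusted p = 0.0271, adjusted p = 0.986). Cma1 had means of 2.69, 1.23, 1.15 and 0.892 FPKM and an interaction of 0.69 (SE 0.335, unadjusted p = 0.0452), with 11 of 12 combination animals above the level of the summed changes. Cpa3 and Cma1 thus fell with each treatment, and their levels in the combination were between that of a single treatment and that of the sum.

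Mcpt8l2 and Mcpt8l3 encode near-identical proteases whose reads may be split between them, so their values are uncertain. Mcpt8l2 had means of 3.13, 1.32, 1.10 and 0.403 FPKM and an interaction of 0.05 (SE 0.494), which ran from -0.26 to 0.24 when single animals were left out, while Mcpt8l3 had means of 3.36, 1.12, 0.979 and 0.779 FPKM and one of 1.37 (SE 0.471, unadjusted p = 0.00573). Tgm1, a transglutaminase of epithelia, had means of 1.65, 0.867, 0.927 and 0.502 FPKM and an interaction of 0.13 (SE 0.31), which ran from 0.00 without Enalapril animal 2001 to 0.26 without 2103. Cxcl1, a neutrophil chemokine, had means of 1.44, 1.04, 1.02 and 0.619 FPKM and an interaction of -0.23 (SE 0.37). The mean level of the 7 genes fell by 1.21 with Compound 1 alone (SE 0.118) and by 0.75 on top of Enalapril (SE 0.207), an interaction of 0.47 (SE 0.238). Over the mast cell list, 5 of 11 genes were tested (Cpa3, Cma1, Mcpt2, Kit and Gata2), 4 had a positive interaction, and the median was 0.50. The list is not separate from the genes above, since Cpa3, Cma1 and Mcpt2 are among its members and the median is the value of Mcpt2. Under the alternatives on a log2 scale, the interaction ran from 0.16 to 0.81 for Mcpt2, 0.42 to 0.91 for Cpa3 and 0.54 to 0.79 for Cma1. Kit and Gata2 were not called for either treatment, and the 1 negative interaction belonged to Kit or Gata2. The level of the 5 tested genes together, as a mean of log2 values, ran from 1.94 to 2.77 in Vehicle, 1.22 to 2.27 under Enalapril, 1.18 to 2.02 under Compound 1 and 0.59 to 1.47 under both. The receptor Ms4a2 and tryptases Tpsab1 and Tpsb2 did not pass the filter.

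**Figure D4:**
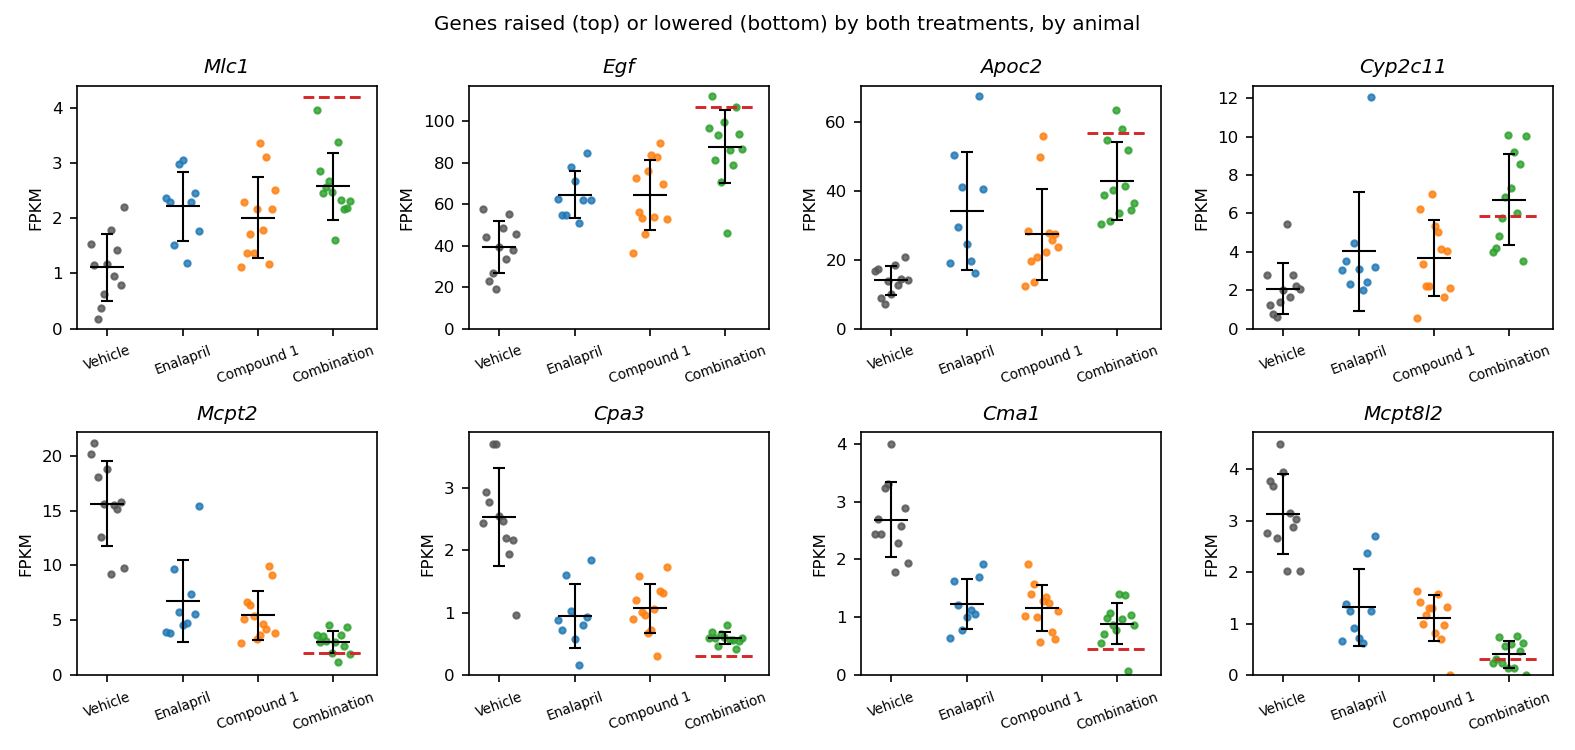
FPKM in each animal (points) of 4 genes raised (top) and 4 genes lowered (bottom) by both treatments, with the mean and SD (black) and the level of the summed log2 changes (red dashes). Mlc1 in all 12 combination animals lies below the dashes, and Cpa3 in all 12 lies above them; no interaction of these 8 genes passed the test.

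By the additive fit Compound 1 lowered 9 genes without a call for Enalapril, among them Cyp27b1, the vitamin D 1-alpha-hydroxylase, with means of 3.57, 1.91, 1.60 and 1.24 FPKM in Vehicle, Enalapril, Compound 1 and the combination, and an interaction of 0.63 (SE 0.451). Olfm4, a secreted glycoprotein of epithelia and neutrophils, had means of 12.7, 8.05, 6.41 and 5.12 FPKM and an interaction of 0.33 (SE 0.212). Ptgs2, cyclooxygenase 2, departed least, as it fell by 0.59 without and 0.65 with Enalapril, with an interaction of -0.06 (SE 0.229). Pgam2, the muscle phosphoglycerate mutase, was raised by 0.69 (SE 0.137) without and 0.49 (SE 0.145) with Enalapril. Tnni1, a slow skeletal muscle troponin, was the 1 gene that this fit called in opposite directions for the treatments. It had means of 1.77, 0.805, 2.15 and 1.55 FPKM and an interaction of 0.68 (SE 0.299, unadjusted p = 0.0273). The log2 change with Compound 1 was 0.28 without and 0.96 with Enalapril, and neither comparison passed by itself.

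By gene list, no list held a gene that passed, and most medians lay near the 0.05 of all genes, of which 64.5% had a positive interaction. Interferon-stimulated genes, which cells switch on in response to interferons, had a median interaction of 0.27, with 24 of 27 tested members positive and 3 at an unadjusted p under 0.05. Their mean log2 level ran from 2.98 to 3.71 in Vehicle, 2.49 to 3.20 under Enalapril, 2.45 to 3.18 under Compound 1 and 2.26 to 3.11 under both, so every group overlapped. Against Vehicle the median of the list was -0.42 for Enalapril, -0.43 for Compound 1 and -0.56 for both together, and the interaction of the mean level was 0.26 (SE 0.141). Ifit1, an RNA-binding antiviral protein, had means of 5.69, 3.97, 3.91 and 3.75 FPKM and an interaction of 0.47 (SE 0.201, unadjusted p = 0.0231). Xaf1, a pro-apoptotic interferon target, had means of 9.21, 5.98, 6.70 and 5.91 FPKM and an interaction of 0.47 (SE 0.187). For this list the median was 0.06 with array quality weights and from 0.21 to 0.33 under the other alternatives on a log2 scale.

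The MHC class II genes, which present antigen to helper T cells, had 10 of 10 members positive, 3 at an unadjusted p under 0.05, and a median of 0.23. The interaction of their mean level was 0.24 (SE 0.135). RT1-Db1, a class II beta chain, had means of 39.5, 23.7, 30.1 and 24.8 FPKM and an interaction of 0.46 (SE 0.175, unadjusted p = 0.0124). Transcripts encoded by the mitochondrial genome went the other way, with 0 of 13 positive and a median of -0.21, but this was -0.03 with 5 of 13 positive after quantile normalization. They made up 27.5% of FPKM in Vehicle, 32.8% under Enalapril, 30.2% under Compound 1 and 32.1% under both, an interaction of -3.37 percentage points (SE 3.12). In the angiotensin and kinin list 19 of 25 genes were tested and 12 were positive (median 0.08), and in the nitric oxide and cGMP list 22 of 36 were tested and 15 were positive (median 0.03). Principal cell genes had 9 of 12 positive and a median of 0.11, with an interaction of the mean level of 0.08 (SE 0.0637). The smallest unadjusted p among them was that of Cldn4, a tight junction claudin of the collecting duct. Cldn4 had means of 112, 67.3, 68.8 and 51.7 FPKM and an interaction of 0.33 (SE 0.158, unadjusted p = 0.0441, adjusted p = 0.986). Fibrosis and matrix genes had 24 of 34 positive, near the share of all genes, and a median of 0.15, with an interaction of the mean level of 0.09 (SE 0.153).

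**Figure D5:**
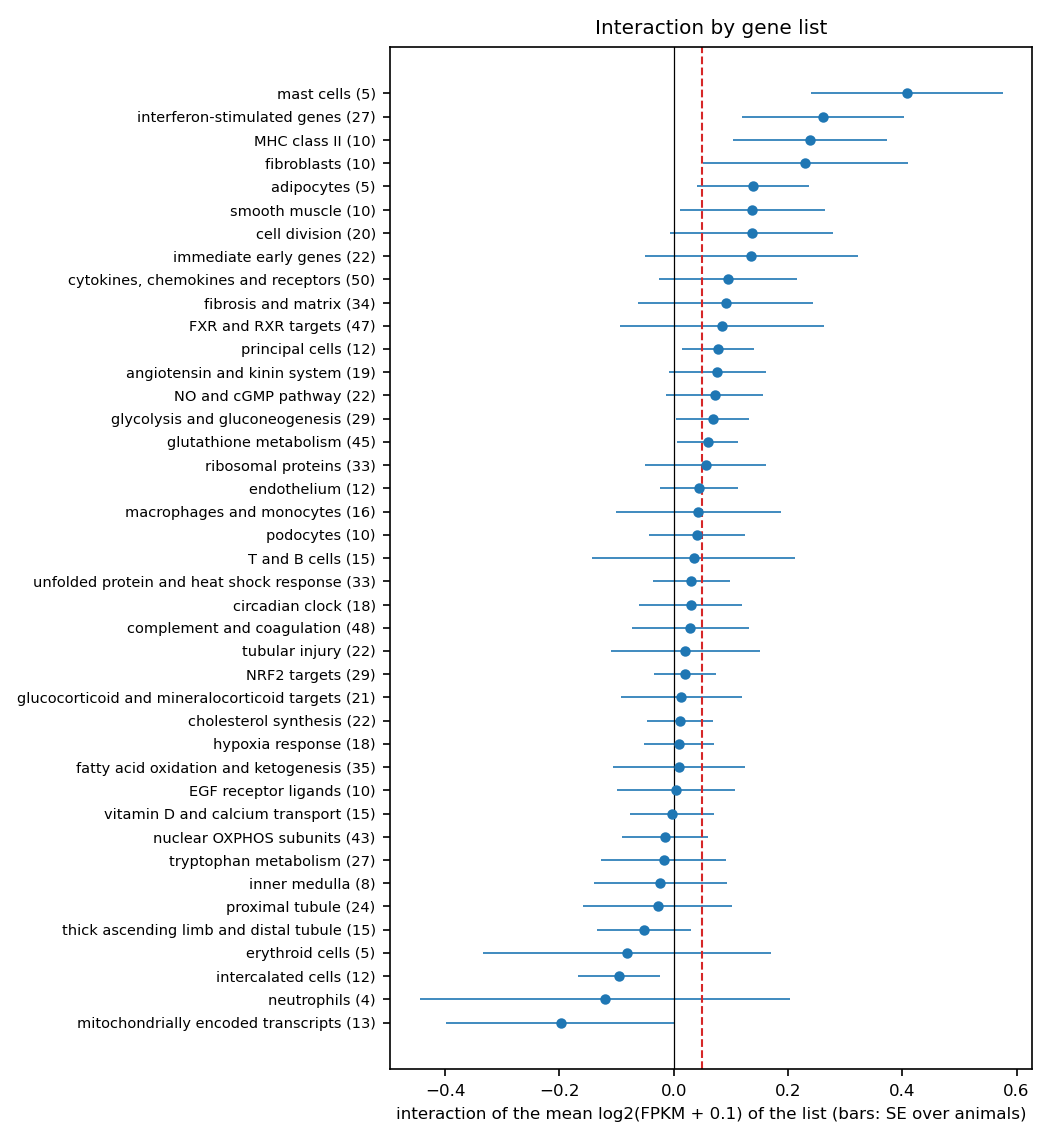
Interaction of the mean log2(FPKM + 0.1) of each gene list with at least 4 tested genes (points; number tested in brackets), with its standard error over animals (bars), the median interaction of all genes (red dashes) and 0 (black line). The mast cell list lies farthest to the right and the mitochondrially encoded transcripts farthest to the left, and most lists lie within 1 standard error of the dashed line.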

How the data were processed

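Kidney RNA of 44 male obese ZSF1 rats was sequenced by the authors as stranded mRNA libraries, and the authors deposited FPKM on build rn6. For the aligner and counter, the name is not given in the sources used. In the study, the authors tested raw counts with DESeq2, which the FPKM do not allow. Values were turned into log2(FPKM + 0.1) and fitted with limma 3.58.1 in R 4.3.3 (mean-variance trend, all 4 groups, no covariate). The filter was FPKM over 1 in 9 or more animals. Benjamini-Hochberg adjustment ran over 13482 genes, with thresholds of 0.05 and a fold over 1.5 or below 0.66.

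A second fit with additive terms for Enalapril and Compound 1 gave the response classes. The gene lists, the classes and the contrast were chosen with earlier results of these data known. Genes were named by rule: those called in the interaction, filled to 10 per direction by unadjusted p among those past the fold, up to 4 per class by additive effect, up to 2 per list by p, and the genes the paper names from RNA-Seq. The other members of the small classes, Kit and Gata2 were named after their values were seen.

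FPKM give no read totals. Relative depth, read from ratios of low values, ran from 0.635 to 1.40 between libraries, and no counting interval can be given. Columns that were empty, 2 in all, were left out. Of 28906 symbols, 295 stand on more than 1 entry. The fits were tested on simulated data. Alternatives were other pseudocounts, filters, scalings, weights, an inner medulla covariate, the scale of FPKM, and leaving out animals. The 4 that were added after seeing the data removed mitochondrial transcripts, animals 1003 and 1004, those with 3001 and 3105, or added a term for the 6 animals listed last. Each library is a different animal. A few genes of the table are not reported here.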

Additional observations from a re-analysis of the deposited data

Results flagged for a closer look

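In the interaction, Kcne1 differed between the contrasts by 1.21 on the log2 scale. Within the Enalapril group (9 animals), Dixon's test singled out 8 values over 51 genes, all of them high. The test flags about 1 in 20 groups of normally distributed values by chance. It was run on FPKM without a log, and some of the genes vary together, so the 8 cannot be set against that rate. Animal 2005 had 5.06 FPKM of Kcne1, the others lying from 1.82 to 3.33, and 6.81 FPKM of Nhp2, a small nucleolar ribonucleoprotein, the others reaching 4.26. Animal 2103 was high for 3 genes that both treatments lowered, with 15.4 FPKM of Mcpt2, 3.48 of Mcpt8l3 and 1.81 of Tgm1, beside at most 9.66, 1.75 and 0.997 in the others. Animal 2012 had 12.1 FPKM of Cyp2c11, the others reaching 4.49. LOC100911166 was at 1.98 FPKM in animal 2011 and at most 0.919 in the others, and Snrpg, a spliceosome protein, at 19.5 FPKM in animal 2007 and at most 9.68 in the others. Without animal 2103 the interaction of Mcpt2 was 0.66 and that of Mcpt8l3 was 1.61.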

How the results depend on the processing

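No paired analysis was possible because the animals were separate between groups and no number was shared. Kcne1 kept its direction in every alternative that tested it. The interaction called 0 genes without a filter, at FPKM above 5 (where Kcne1 was not tested), after median-of-ratios scaling (Kcne1 adjusted p = 0.247) and after quantile normalization (0.503). It also called 0 genes without animals 2103 and 3102 to 3105 (0.147) and without mitochondrial transcripts (0.0515). Without 1003 and 1004 it called 2 genes, Adap2 being the second. Over all 14 alternatives on a log2 scale that tested Kcne1, its adjusted p ran from 0.00125 (array quality weights) to 0.503.

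Counts that moved by over 1.5 times are given as additive Enalapril, additive Compound 1, Enalapril against Vehicle, the combination against Compound 1, Compound 1 against Vehicle and the combination against Enalapril, in this order where all moved. They were 124, 12, 248, 115, 19 and 2 with a pseudocount of 1, and 131, 49, 214, 79, 90 and 11 with the inner medulla covariate. At the adjusted p alone they were 6432, 430, 4199, 2989, 95 and 7. On the scale of FPKM they were 6463, 406, 4343, 2791, 150 and 4. That scale was also called at the adjusted p alone, so its counts compare with those and not with the main fit. At FPKM above 5 the first 5 were 166, 10, 297, 134 and 16. Enalapril against Vehicle was 377 after median-of-ratios scaling, 343 after quantile normalization (additive Enalapril 265), 342 without 1003 and 1004, and 346 without 1003, 1004, 3001 and 3105. Without those 4 animals additive Enalapril was 240 and the combination against Compound 1 was 203, which was 487 with weights and 499 without the 6 animals listed last. Compound 1 against Vehicle was 20 without 1003 and 1004 and 18 without the last 6. The combination against Enalapril was 18 with weights, 4 after either scaling, with a term for the last 6 and without the 4 animals, 2 without the last 6, and 0 without 2103 and 3102 to 3105. The median interaction of genes lowered and raised by Compound 1 was 0.012 and -0.027 at the adjusted p alone, and -0.031 for raised genes with weights.

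Leaving out single animals gave 0 to 2 calls in the interaction, 321 to 484 for additive Enalapril, 19 to 30 for additive Compound 1, 408 (without Vehicle 1003) to 780 for Enalapril against Vehicle, 209 (without Compound 1 animal 3001) to 442 for the combination against Compound 1, 24 to 41 for Compound 1 against Vehicle and 0 to 8 for the combination against Enalapril. The median interaction ran from 0.03 to 0.07 over all genes, 0.0055 to 0.13 for genes lowered and -0.30 to -0.095 for genes raised by Enalapril, and 0.19 to 0.48 for genes lowered and -0.48 to -0.23 for genes raised by Compound 1. Chosen from the comparisons with Vehicle, which share animals with the contrast, the class medians were 0.20, -0.26, 0.39 and -0.40. FPKM carry no depth, and the intervals were wider for low genes.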
